A study of Mus musculus with 78 samples.

Results

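Rod photoreceptors of 1 mouse line were profiled in repeated sets that carry the same batch label, b2 2nd and b2 single, and the data described here are the difference between these sets. All samples titled b2 2nd (3 arrays) and b2 single (3 arrays) were taken, which is 6 of the 78 arrays of the series, with all 19446 probe sets that the probe table pairs with 1 gene symbol. The series compared fluorescent cells sorted from the retinas of 22 transgenic lines, in 26 sets of 3 biological replicates on Affymetrix Mouse Gene 1.0 ST arrays. In both sets the cells came from adult mice of the line b2-Cre × Rosa26-LSL-RFP, in which Cre removes a stop cassette so that red fluorescent protein (RFP) is made, on a mixed background of C57BL/6J and the FVB/N-Swiss Webster hybrid, and both sets carry batch label 2. Another set of the line, b2 1st (3 arrays, batch label 1), has otherwise the same labels. For every array 200 RFP-positive cells were sorted after a dissociation of 15 min. The labels name the cells as rods without saying what drives the Cre or how the sets differ, and state that the FVB/N-Swiss Webster hybrid mice of the series can carry a recessive mutation that causes photoreceptor degeneration. That background is shared by all 3 sets. The labels call the arrays biological replicates and name no animals.

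Rods are the photoreceptors of dim light. Light leads to activation of the G protein transducin, transducin switches on a phosphodiesterase that breaks down cyclic GMP, and the cyclic GMP-gated channels of the outer segment close. The transcription factor Nrl directs photoreceptor precursors to the rod fate. Since line, batch label and sorting are shared, the comparison of b2 2nd with b2 single shows how far sets of the same sorted cell type differed.

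Each value is 1 intensity per probe set and array, on a linear scale shared by all arrays, and log2 was taken for differences. Intensities of different probe sets are not levels of RNA that can be ranked against each other. Intensities at or below 3.99, the floor where the ordered run of low values ends, carry no order. After leaving out dim probe sets, 15736 were tested. Pearson correlations of log2 intensity across these probe sets were 0.810 to 0.872 within b2 2nd, 0.849 to 0.871 within b2 single and 0.864 to 0.868 within b2 1st. Between b2 2nd and b2 single arrays they were 0.803 to 0.856, a range that overlaps those within the sets. Replicate 2 of b2 2nd had the lowest median correlation with the other 8 arrays of the line, 0.812, against 0.839 to 0.857 for those. With replicate 1 of b2 2nd, however, it correlated at 0.872, the highest pair of the line. The median SD of a probe set within a set was 0.387 (log2) in b2 2nd, 0.326 in b2 single and 0.311 in b2 1st, against 0.172 to 0.498 in the 23 sets of other lines. The spread within b2 2nd was the fourth widest of the 26 sets. With 3 arrays a set, precision is limited by their number. P-values from the fit of the whole series measure the spread within all 26 sets, most of them of other lines. Those from fits of b2 2nd and b2 single alone measure the spread between the arrays of these sets.

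No gene of the rod transduction cascade was called different between b2 2nd and b2 single, and the widths of the intervals differed from gene to gene. Calls rested on the spread over all 78 arrays, a median SD of 1.58 for these probe sets, against 0.371 in the 6 arrays. With so wide a spread the absence of calls says little about these genes. Gnat1, the rod transducin alpha subunit, had intensities of 2796, 2267 and 1401 in b2 2nd, against 1841, 1565 and 1601 in b2 single. The arrays overlapped, since the lowest and the highest of the 6 were both in b2 2nd. The difference, b2 2nd minus b2 single, was 0.32 on the log2 scale, with an SE of 0.24 and a 95% interval of -0.24 to 0.87 from a limma fit of the 6 arrays (unadjusted p = 0.22). Nrl had 91.4, 229.6 and 84.1 in b2 2nd, against 119, 103 and 104.3 in b2 single. Its difference was 0.16 (95% interval -1.04 to 1.35 in the 6 arrays), and replicate 2 of b2 2nd was the highest of the 6 arrays. With that array left out of the fit of all 78, the Nrl difference was -0.31. Gnb1, the transducin beta subunit of rods, had 1884, 1342 and 922 in b2 2nd, against 1503, 1454 and 1630 in b2 single (-0.20, 95% interval -0.78 to 0.37). Gngt1, the transducin gamma subunit, had 1121, 1318 and 996 in b2 2nd, against 1131, 1073 and 1039 in b2 single (0.07, -0.33 to 0.47). Among the 10 tested probe sets of the rod cascade none was called in any direction, and the differences ran from -1.49 for Pde6a to 0.32 for Gnat1. Pde6a, a catalytic subunit of the rod phosphodiesterase, had 108, 129 and 22.1 in b2 2nd, against 127.6, 237 and 229 in b2 single. Its interval, -3.17 to 0.18, reached 0, and the low array was replicate 3 of b2 2nd.

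Of the genes that shut off the light response and restore calcium, 10 probe sets were tested and 0 were called. Their differences ran from -0.77 for Gucy2f, a guanylate cyclase, to 0.27 for Gnb5, a G protein beta subunit of the shutoff complex. Gucy2f was dim, with 8.37, 4.92 and 3.78 in b2 2nd, against 13.99, 9.22 and 5.94 in b2 single (95% interval -1.67 to 0.13), and its arrays overlapped. Guca1a, a calcium sensor that activates guanylate cyclase, had 4552, 4902 and 3972 in b2 2nd, against 4171, 4552 and 3972 in b2 single (0.08, 95% interval -0.14 to 0.30). Sag, the arrestin of rods, had 2950, 2896 and 2472 in b2 2nd, against 2796, 2472 and 2537 in b2 single (0.09, -0.16 to 0.34). Pdc, the transducin-binding protein phosducin, had 2064, 1991 and 1731 in b2 2nd, against 1957, 1817 and 1742 in b2 single (0.07, -0.22 to 0.35). The intervals of these 3 genes lie within 0.35 of 0 on the log2 scale. Of the structural genes of the outer segment, Rom1, a disc rim protein, had 3070, 2655 and 2236 in b2 2nd, against 2583, 2437 and 2505 in b2 single (0.07, -0.22 to 0.36). Prph2, its partner in the rim, had 2296, 2206 and 1804 in b2 2nd, against 2046, 2046 and 2083 in b2 single (0.02, -0.27 to 0.31). Fscn2, an actin-bundling protein of photoreceptors, was apart from these: it had 622, 529 and 352 in b2 2nd, against 1077, 821 and 761 in b2 single. Its arrays did not overlap, and the difference was -0.84 (95% interval -1.51 to -0.18, unadjusted p = 0.019 in the 6 arrays), which did not pass the adjustment over all probe sets. Fscn2, Kif3a and Ift88, the last 2 of which serve transport along the cilium, were the 3 of 20 outer segment probe sets with an unadjusted p under 0.05 in the 6 arrays, where 7.22% of all tested probe sets had one. Kif3a, a kinesin subunit, had 20.2, 6.94 and 21.2 in b2 2nd, against 107.9, 73.2 and 29.5 in b2 single (-2.10, 95% interval -3.59 to -0.60, adjusted p = 0.076 with the pooled spread of limma). Ift88, an intraflagellar transport protein, had 10.7, 11.8 and 6.98 in b2 2nd, against 13.7, 22.6 and 36.3 in b2 single (-1.23, -2.19 to -0.26). In both genes all b2 2nd arrays were below all b2 single arrays. The median difference of the 20 was -0.23, 5 were above 0, and the arrays of 5 did not overlap. Over all tested probe sets the arrays did not overlap for 5.94% with b2 2nd higher and for 7.28% with it lower.

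Photoreceptor transcription factors and synapse genes also held no call. The arrays of 5 of the 10 tested transcription factor probe sets did not overlap, Neurod1, Crx and Otx2 among them, and 0 of the 17 synapse probe sets were so. Over all tested probe sets these shares were 5.94% with b2 2nd higher and 7.28% with it lower. Of the 10, 0 had an unadjusted p under 0.05 in the limma fit of the 6 arrays. Neurod1, a basic helix-loop-helix factor of photoreceptors, had 1423, 1282 and 1415 in b2 2nd, against 1548, 1640 and 1682 in b2 single (-0.24, 95% interval -0.54 to 0.06). All 3 arrays of b2 2nd were below those of b2 single. Crx, the homeobox factor that activates many photoreceptor genes, had 94.8, 101.9 and 117 in b2 2nd, against 65.7, 41.4 and 65.8 in b2 single (0.89, -0.14 to 1.92). Otx2, a homeobox factor upstream of Crx, had 74.5, 62.2 and 55.7 in b2 2nd, against 118, 84.1 and 113 in b2 single (-0.71, -1.71 to 0.30). Crx, Otx2, Pde6a, Gucy2f, Kif3a, Ift88 and Rdh11 were singled out after their values were seen. Rax, a retinal homeobox factor, overlapped, with 186, 72.1 and 127 in b2 2nd, against 246, 101.1 and 95.5 in b2 single. At the ribbon synapse, Unc119, a carrier of transducin, had 2537, 2437 and 1540 in b2 2nd, against 2700, 2296 and 1973 in b2 single (-0.12, SE 0.21). Cplx4, a complexin of photoreceptor terminals, had 750, 656 and 571 in b2 2nd, against 833, 809 and 589 in b2 single (-0.17, SE 0.24). The 17 synapse probe sets ran from -0.48 to 0.45. In the visual cycle, Rdh12, a retinol dehydrogenase, had 241, 680 and 213 in b2 2nd, against 161, 134 and 219 in b2 single (0.96, SE 0.52), with replicate 2 of b2 2nd highest. Rdh11, another retinol dehydrogenase, had the largest difference of the 7 visual cycle probe sets, with 56.1, 40.5 and 20.6 in b2 2nd, against 13.6, 9.85 and 14.6 in b2 single (1.53, 95% interval 0.48 to 2.57). Its arrays did not overlap, and it was not called (adjusted p = 0.34 with the pooled spread of limma). The 7 ran from -0.68 for Rbp3, which carries retinoids between cells, to 1.53, with a median of 0.57. The arrays of 3 did not overlap, and 2 had an unadjusted p under 0.05 in the 6 arrays, where 7.22% of all tested probe sets had one.

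**Figure D1:**
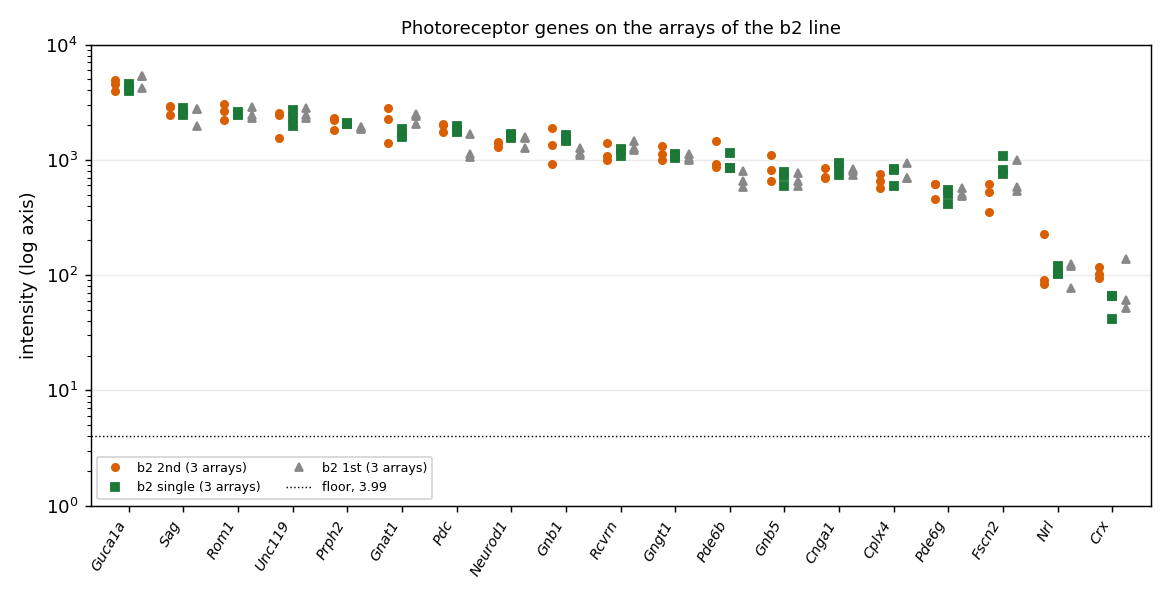
Intensity on each array (log axis) of the 17 photoreceptor probe sets with a mean of 500 or more over the 6 arrays, and of Nrl and Crx, with b2 2nd as circles, b2 single as squares and b2 1st as triangles, 3 arrays each. The circles and squares lie close together for most genes, and they part for Fscn2, at 352 to 622 in b2 2nd and 761 to 1077 in b2 single.

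Over the 6 photoreceptor lists 72 probe sets were tested and 0 were called by limma with the spread of all 78 arrays. Of all tested probe sets 2.04% were called. In the 6 arrays alone 5 of the 72 had an unadjusted p under 0.05, beside 7.22% of all tested probe sets, and 0 passed the adjustment. The median difference of the 72 was -0.09, beside -0.02 over all tested probe sets. The 17 with a mean of 500 or more differed by -0.84 to 0.32, and for 16 of them the 95% interval from the 6 arrays lay within 1 log2 unit either way. The pooled spread of these genes is not that of rods: the 17 had a median SD of 0.195 within the 2 sets, against 1.91 over all 78 arrays. For Gnat1, whose median over the 23 sets of other lines was 0.450, under the floor, the SE was 2.02 with the pooled spread. The fit of the 6 arrays is therefore given for the photoreceptor genes. With the pooled spread only large differences of the 17 could be called, so their 0 calls do not show that the sets were alike. The fit of the 6 arrays called 0 of all tested probe sets.

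Across all tested probe sets, a call was an adjusted p under 0.05 together with a log2 difference of at least 1, from limma with the spread pooled over all 78 arrays. By this rule 321 of 15736 probe sets were called, 2.04% of those tested. Of these 159 were higher in b2 2nd (1.01%) and 162 were lower (1.03%). With the spread of the 6 arrays only, limma called 0, with a smallest adjusted p of 0.42 and 1136 probe sets (7.22%) at an unadjusted p under 0.05. With the 9 arrays of the b2 line it also called 0 (1316 at an unadjusted p under 0.05). All 3 arrays of b2 2nd lay above those of b2 single for 935 probe sets (5.94%) and below them for 1145 (7.28%). Among the called, which were chosen for a difference in these arrays, 122 of the 159 higher and 116 of the 162 lower did not overlap. The median absolute difference was 1.69 for the higher and 1.73 for the lower calls, against 0.279 over all tested probe sets. The plot of set means shows the calls on both sides of a narrow diagonal, with the photoreceptor genes at its bright end.

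**Figure D2:**
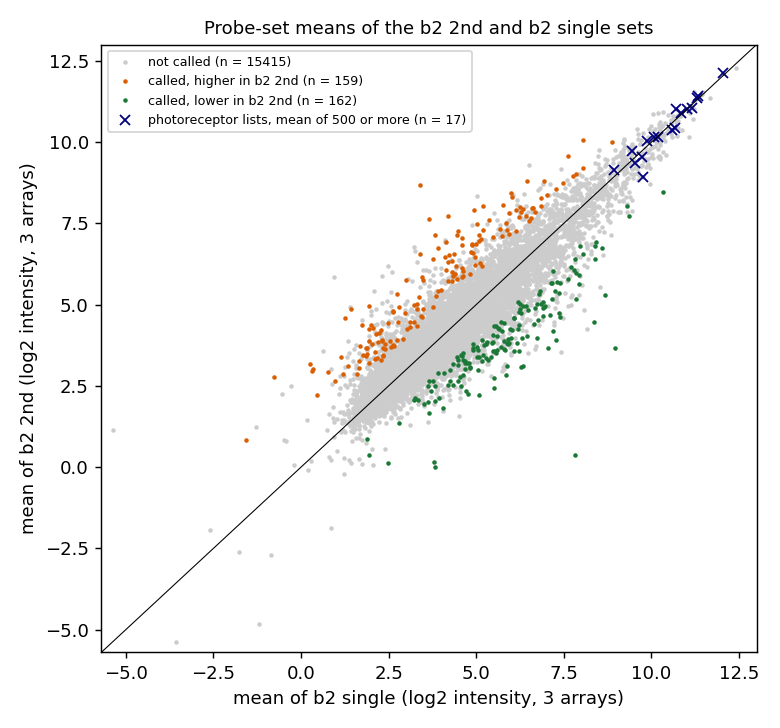
Mean log2 intensity of each of the 15736 tested probe sets in b2 2nd (y axis) against b2 single (x axis), 3 arrays each, with the line of equal means. The 159 probe sets called higher in b2 2nd and the 162 called lower spread over the middle of the range, and the 17 bright photoreceptor probe sets (crosses) lie near the line.

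The called probe sets were mostly more variable in the 6 arrays than in all 78. Their median SD within sets was 0.737 over the 6 arrays and 0.486 over the 78, and 270 of the 321 were more variable in the 6 arrays. Over all tested probe sets the medians were 0.404 and 0.403. The same number, 270 of the 321, had an unadjusted p under 0.05 in the fit of the 6 arrays, beside 7.22% of all tested probe sets. The calls were chosen for differences in these same arrays, so this count is no support for them. The rule also favours a small spread over the 78 arrays, so the contrast of SDs is a description.

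**Figure D3:**
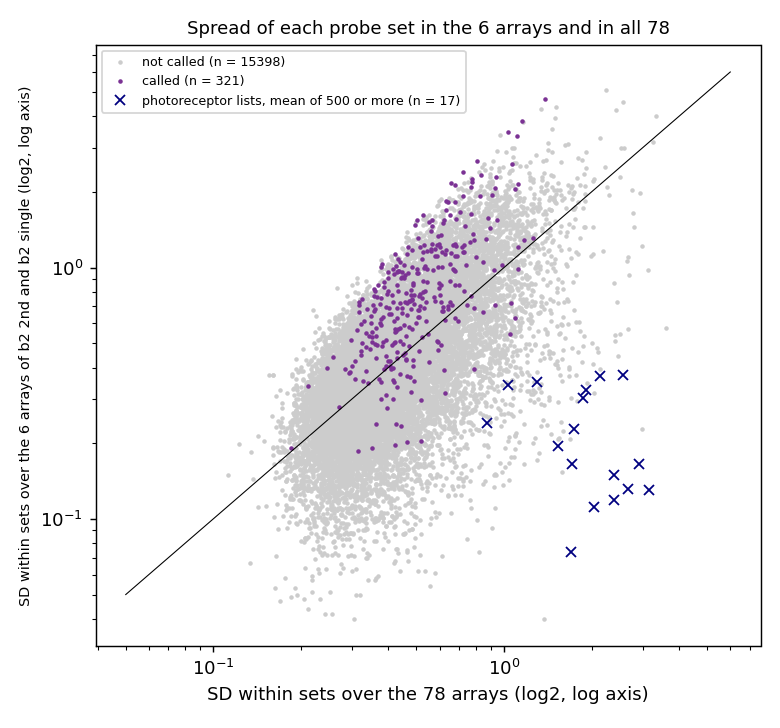
SD of each tested probe set within the sets, over the 6 arrays of b2 2nd and b2 single (y axis) against all 78 arrays (x axis), both in log2 units on log axes, with the line of equal SD. The 321 called probe sets lie mostly above the line and the 17 bright photoreceptor probe sets (crosses) all lie below it.

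Calls were most frequent at middle intensities. They made up 0.941% of the probe sets with a geometric mean under 8 over the 6 arrays, 5.15% between 32 and 64, 6.04% between 128 and 256, and 1.44% at 512 or more. Many calls were lost in fits without 1 array, which does not separate the weight of that array from the loss of a replicate. When each of the 6 arrays was left out in turn, 57 of the 321 calls (34 higher and 23 lower) were kept by all 6 fits, and 5 by none. Without replicate 2 of b2 2nd, 184 probe sets were called, 135 higher and 49 lower, and 147 of these were among the 321. Leaving out any other array gave 276 to 451 calls. In replicate 2 of b2 2nd, 105 probe sets lay 3 or more log2 units above the median of the other 8 arrays of the line, and in replicate 3 of b2 2nd 96 did, against 45 in replicate 1 of b2 2nd and 62 to 73 in the b2 single arrays. With arrays weighted by quality, 122 were called.

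**Figure D4:**
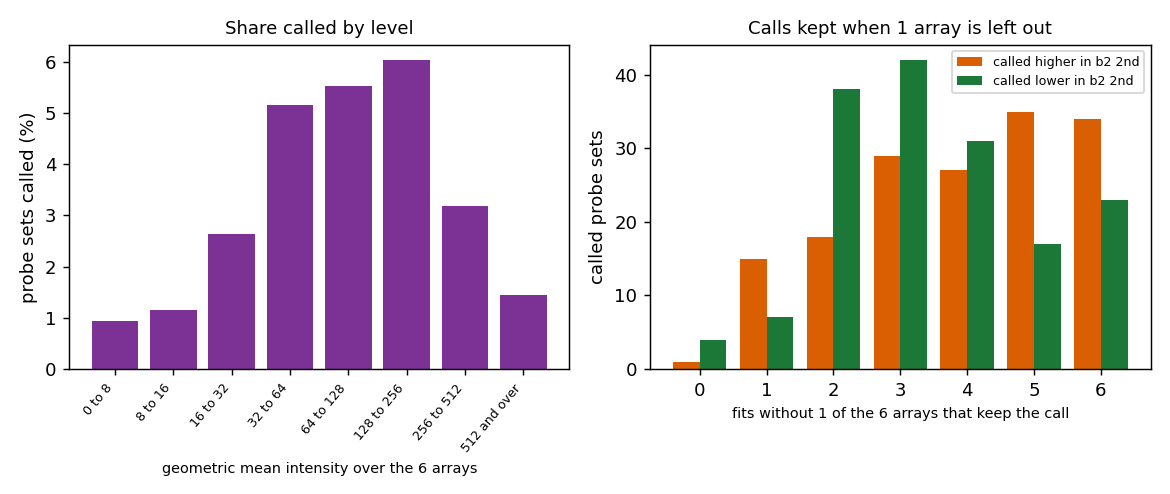
Left, the percentage of tested probe sets called, by geometric mean intensity over the 6 arrays; right, the number of called probe sets by how many of the 6 fits without 1 array kept the call, higher and lower in b2 2nd. The share called peaks at 6.04% between 128 and 256, and 34 higher and 23 lower calls were kept by all 6 fits.

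Among the 15 largest higher calls with arrays that did not overlap were subunits of protein-degradation complexes, lysosomal and cytoskeletal genes, and chemosensory receptors. Cops6, a subunit of the COP9 signalosome that trims the protein tag Nedd8 from ubiquitin ligases, had 629.6, 322 and 333 in b2 2nd, against 29.7, 7.30 and 5.50 in b2 single. The difference was 5.26 (SE 0.42, adjusted p = 1.4e-13), from 4.79 to 6.01 with 1 array left out. The b2 single arrays were the low ones: b2 1st had 182, 402 and 341, and the means of the 23 sets of other lines were 169 to 872. Lgals1, a galactose-binding lectin, had 381, 168 and 125 in b2 2nd, against 10.8, 11.5 and 16.2 in b2 single (3.99, SE 0.86, adjusted p = 0.004). For this gene b2 1st, with 12.1, 9.35 and 11.4, was like b2 single. Ube2ql1, a ubiquitin-conjugating enzyme-like protein, had 185, 149.9 and 355 in b2 2nd, against 12.3, 14.9 and 33.3 in b2 single (3.55, SE 0.74, adjusted p = 0.0026). Marcksl1, an actin-regulating substrate of protein kinase C, had 46.9, 82.0 and 222 in b2 2nd, against 11.3, 7.18 and 14.1 in b2 single (3.18, SE 0.44, adjusted p = 3e-06). Ctsd, the lysosomal protease cathepsin D, had 104.2, 60.6 and 99.0 in b2 2nd, against 15.2, 6.70 and 24.4 in b2 single (2.66, SE 0.39, adjusted p = 1.2e-05). Pagr1a, a partner of a histone methyltransferase complex, had 291, 128.4 and 74.8 in b2 2nd, against 42.5, 15.99 and 4.29 in b2 single (3.30, adjusted p = 0.0011). Each of these 6 genes was called in all 6 fits without 1 array. In the fits of the 6 arrays their unadjusted p-values were 7.2e-05 to 0.0056 and none passed the adjustment.

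Another 4 of the 15 were not called in every fit without 1 array. Psmb7, a catalytic subunit of the proteasome, had 198, 147 and 202 in b2 2nd, against 106, 5.90 and 53.7 in b2 single (2.48, adjusted p = 9e-04), and without replicate 2 of b2 single the difference was 1.26 (adjusted p = 0.052). Bola2, an iron-sulfur cluster assembly protein, had 113, 352 and 30.4 in b2 2nd, against 18.8, 13.3 and 13.4 in b2 single (2.83, adjusted p = 0.004), and without replicate 2 of b2 2nd it had 1.97 (adjusted p = 0.12). Exosc7, an RNA exosome subunit, had 307, 201 and 291 in b2 2nd, against 39.3, 21.9 and 56.5 in b2 single (2.84, adjusted p = 0.048). It was called in none of the 6 fits without 1 array, at 2.47 to 3.16 with adjusted p-values of 0.056 to 0.18. Amn1, an antagonist of mitotic exit in yeast, had 165, 96.8 and 225 in b2 2nd, against 23.6, 53.7 and 8.74 in b2 single (2.78, adjusted p = 0.038), and it was called in 1 of those 6 fits. The range without 1 array was 2.1 to 3.42.

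There were 5 chemosensory receptor probe sets among the 15, 4 of them olfactory receptors and 1 a vomeronasal receptor, families with near-identical copies in which a probe set may not separate the members. Olfr729 had 87.5, 7.39 and 37.9 in b2 2nd, while all 3 b2 single arrays lay under the floor (2.82, 3.37 and 2.06), which gives a difference of at least 2.86. It was called in 1 of 6 fits without 1 array, at 2.63 to 4.42. Olfr1450 had 55.0, 29.7 and 5.59 in b2 2nd, against 2.49, 4.03 and 3.69 in b2 single (2.65 as deposited and 2.38 with values raised to the floor, adjusted p = 0.00043 as deposited), a call kept in all 6 fits. Of its b2 single arrays 2 lay under the floor. Olfr1085 had 13.9, 249.8 and 18.8 in b2 2nd, against 6.36, 8.36 and 5.79 in b2 single (2.58, adjusted p = 0.011), and without replicate 2 of b2 2nd it had 1.26 (adjusted p = 0.35). Olfr190 was above the floor on 1 array only, replicate 2 of b2 2nd at 33.7, so its difference is at least 1.03. The call was lost with values raised to the floor (adjusted p = 0.062), and also on the deposited values without that array (adjusted p = 0.056). Vmn1r5 was above the floor on replicates 1 and 2 of b2 2nd, at 7.68 and 35.4, and on no b2 single array, which gives at least 1.36. Its call on the deposited values was kept in all 6 fits without 1 array, but these fits reused the filter of the full data. Without replicate 2 of b2 2nd every array lay under 9.01, the limit of that filter. Its b2 single values lie under the floor and carry no order, so the kept call adds no support. On the arrays of other lines Olfr190 reached at most 5.38 and Vmn1r5 4.92, so both passed the filter for dim probe sets through b2 2nd alone.

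Among the 15 largest lower calls were a mitochondrial RNA helicase, a transporter, genes of mitochondrial translation and genes of protein handling. Ddx28, a mitochondrial RNA helicase, had 0.0251, 2.12 and 40.0 in b2 2nd, against 266, 356 and 120.2 in b2 single. As 2 of its b2 2nd arrays lay under the floor, it fell by at least 4.71 on the log2 scale (adjusted p = 2.1e-07 on the values as deposited). Slc35a4, a member of a nucleotide sugar transporter family, had 92.9, 1.38 and 16.1 in b2 2nd, against 505, 360.2 and 698 in b2 single (-5.30, SE 0.61, adjusted p = 4.9e-08). Raised to the floor, the Slc35a4 difference was -4.79, and the means of the 23 sets of other lines, 342 to 565, were all near b2 single. The b2 1st arrays, at 38.1, 136 and 291, had a geometric mean of 115, which was also below those of the other lines. Usp31, a deubiquitinase, had 62.3, 15.9 and 10.8 in b2 2nd, against 449, 263 and 297 in b2 single (-3.89, SE 0.88, adjusted p = 0.0067). Ufm1, a ubiquitin-like modifier, had 6.01, 5.44 and 3.06 in b2 2nd, against 48.4, 64.3 and 12.5 in b2 single (-2.87, SE 0.54, adjusted p = 0.0011). Mrpl38, a protein of the mitochondrial ribosome, had 11.2, 10.3 and 33.1 in b2 2nd, against 119, 69.4 and 143 in b2 single (-2.76, SE 0.47, adjusted p = 0.00022). Dctn6, a dynactin subunit, had 74.9, 40.8 and 15.1 in b2 2nd, against 227, 188 and 283 in b2 single (-2.68, SE 0.49, adjusted p = 0.00078). These 6 were called in all 6 fits without 1 array, and their arrays did not overlap.

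The remaining lower calls lost significance without at least 1 array. Pcbd2, a cofactor-recycling dehydratase, had 23.4, 40.5 and 65.6 in b2 2nd, against 703, 119 and 813 in b2 single (-3.36, adjusted p = 0.022), and it was called in 2 of 6 such fits, with differences of -4.25 to -2.87. Mtfmt, which formylates the mitochondrial initiator tRNA, had 14.7, 5.59 and 8.07 in b2 2nd, against 52.0, 142 and 70.4 in b2 single (-3.20, adjusted p = 0.022). Without replicate 2 of b2 2nd Mtfmt had -2.88 (adjusted p = 0.11), and without replicate 2 of b2 single -2.80 (adjusted p = 0.11). Psmg1, a chaperone of proteasome assembly, had 15.9, 23 and 51.6 in b2 2nd, against 285, 223 and 71.2 in b2 single (-2.64, adjusted p = 0.037), and kept its call in 2 of 6 fits (-3.24 to -2.24). Cenpa, the centromeric histone, had 12.2, 5.08 and 10.7 in b2 2nd, against 34.3, 87.8 and 68.3 in b2 single (-2.76, adjusted p = 0.0058). The Cenpa call was lost without replicate 2 of b2 2nd (-2.37, adjusted p = 0.06). Osbpl9, an oxysterol-binding protein, had 5.41, 2.53 and 8.14 in b2 2nd, against 52.4, 32.1 and 11.95 in b2 single (-2.50, adjusted p = 0.004), and was called in 4 of the 6 fits (-3.09 to -2.03). Tmem53 was called in 5, Tmem179b, Glt28d2 and Lce1i in 3 each, with differences from -3.95 to -1.97 over all of these fits. For Cenpa, Glt28d2 and Lce1i the geometric means of b2 single were 59.0, 57.55 and 45.8. The highest means among the 23 sets of other lines were 21.3, 13.4 and 9.63. Single arrays overlapped: other lines reached 56.5, 37.6 and 15.79, and the lowest b2 single arrays had 34.3, 15.78 and 10.55. For Lce1i the b2 1st mean, 14.9, was also above the means of the other lines.

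**Figure D5:**
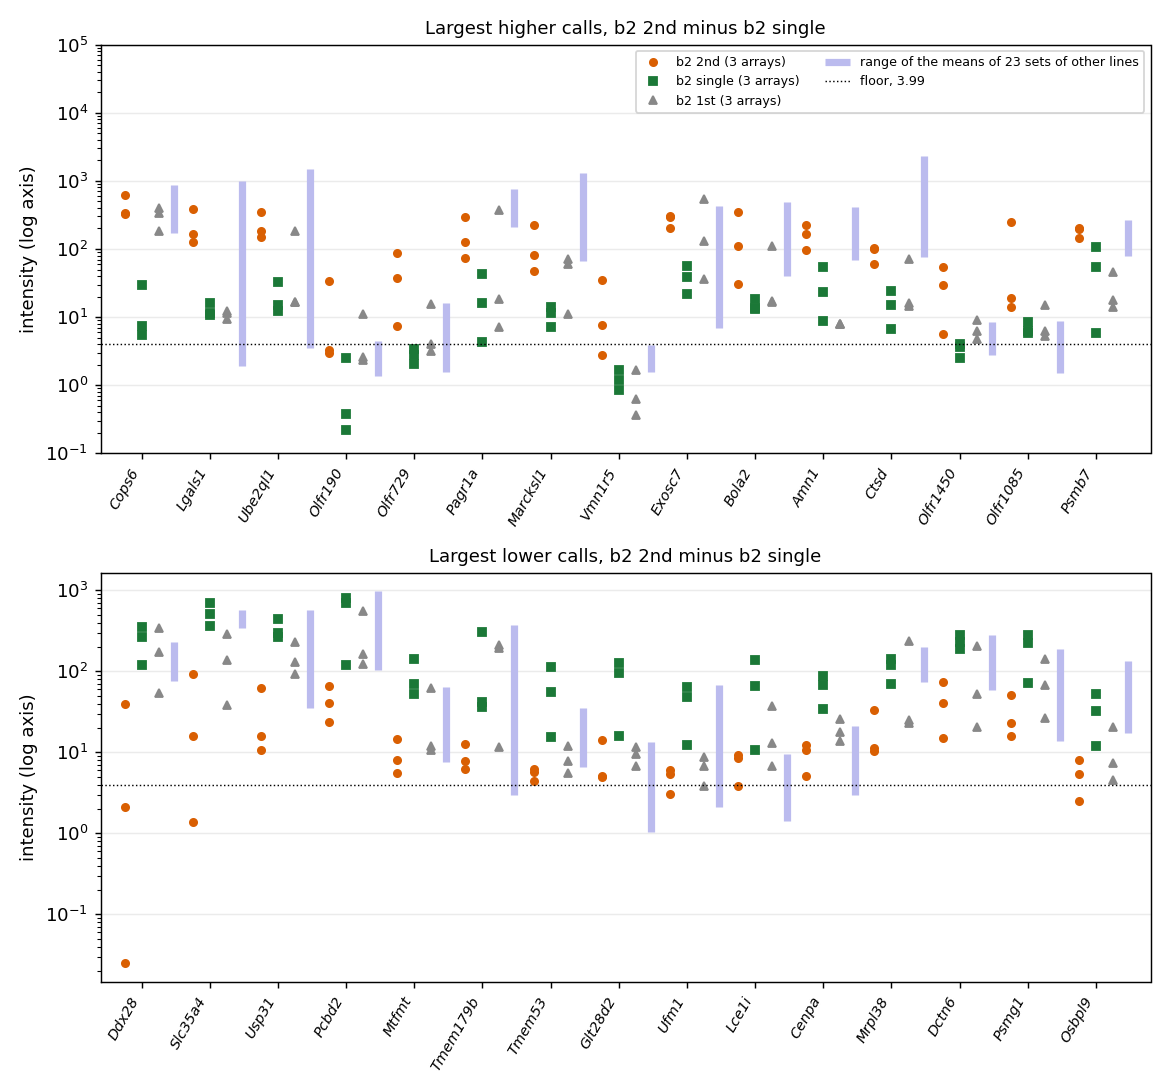
Intensity on each array (log axis) of the 15 largest higher calls (top) and the 15 largest lower calls (bottom) whose arrays do not overlap, with b2 2nd as circles, b2 single as squares, b2 1st as triangles, the range of the means of 23 sets of other lines as bars and the floor of 3.99 as a dotted line. Cops6 in b2 single (5.50 to 29.7) and Slc35a4 in b2 2nd (1.38 to 92.9) lie below the bars.

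Called probe sets were also set beside the other lines; they were chosen for the difference between the sets, so these counts are a description. For 91 of the 159 higher calls the b2 single mean was under the means of all 23 sets of other lines, and for 89 of the 162 lower calls the b2 2nd mean was. Over all tested probe sets these shares were 11.5% for b2 single and 14.1% for b2 2nd. The brighter set was above all 23 for 58 of the higher calls, where it was b2 2nd, and for 44 of the lower calls, where it was b2 single. Over all tested probe sets 10.9% were highest in b2 2nd by this measure and 10.6% in b2 single. The b2 1st mean was nearer to the dimmer set for 211 of the 321 calls: nearer to b2 single for 106 of the 159 higher, and nearer to b2 2nd for 105 of the 162 lower. In 37 higher and 26 lower calls at least 1 array of the dimmer set was at or below the floor, and in 12 and 4 calls all 3 were. The cells were bulk samples of sorted cells, so fewer cells with an RNA and less of it per cell cannot be told apart.

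The lists of general metabolism and stress held 0 to 2 calls each, where 2.04% of all tested probe sets were called. The lists do not hold every gene of these functions. In the 39 listed probe sets of oxidative phosphorylation 1 was called, higher: Uqcrc2, a core protein of complex III, had 446, 289 and 416 in b2 2nd, against 177, 323 and 66.3 in b2 single (1.28, adjusted p = 0.011). Its arrays overlapped, and without replicate 3 of b2 single the difference was 0.66 (adjusted p = 0.28). The respiratory chain subunits Uqcr11 (1.39, adjusted p = 0.011) and Ndufs6 (1.20, adjusted p = 0.0047), outside the list, were also called higher. Their arrays did not overlap. Among the 24 listed probe sets of cytosolic ribosomal proteins 2 were higher. Rpsa, a ribosomal protein outside the list, was also called higher (1.20, adjusted p = 0.0037), and its arrays did not overlap. Rpl4, of the large subunit, had 1250, 977 and 915 in b2 2nd, against 439, 462 and 525 in b2 single (1.13, SE 0.16, adjusted p = 3.4e-06), with 1.00 to 1.22 when 1 array was left out. Without replicate 1 of b2 2nd the unrounded Rpl4 difference was just under the threshold of 1 (adjusted p = 0.0004), so 5 of those 6 fits kept the call. Rps15, of the small subunit, had 296, 143 and 149 in b2 2nd, against 75.3, 92.0 and 27.7 in b2 single (1.68, adjusted p = 0.012), and without replicate 3 of b2 single it had 1.15 (adjusted p = 0.17), without replicate 1 of b2 2nd 1.34 (adjusted p = 0.091). The median of the 24 was 0.14, and they ran from -0.53 to 1.68. Of the 16 listed chaperones 1 was called: Hspa8, the constitutive Hsp70 of the cytosol, had 684, 407 and 728 in b2 2nd, against 266, 239 and 284 in b2 single (1.16, SE 0.18, adjusted p = 2.5e-05), a call kept in all 6 fits without 1 array. Called genes of protein folding outside the list lay in both directions. Among them Hsp90b1 (1.61, adjusted p = 0.011) and Dnajb11 (1.94, adjusted p = 0.0046) were higher. The folding genes Ppih (-3.38, adjusted p = 0.0044) and Tbca (-1.64, adjusted p = 0.0009) were lower. The heat-inducible Hspa1a overlapped, at 379.8, 296 and 389 in b2 2nd, against 397, 521 and 369 in b2 single.

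Glycolysis held 1 call in 19, lower, at Hk1, the hexokinase of neurons, but its probe sets disagreed. The called one was dim, with 12.6, 9.79 and 9.56 in b2 2nd, against 25.3, 14.1 and 29.4 in b2 single (-1.05, adjusted p = 0.013), and it was called in 2 of 6 fits without 1 array (-1.37 to -0.84). The other Hk1 probe set had 1731, 1973 and 2437 in b2 2nd, against 2064, 2152 and 2296 in b2 single, a difference of -0.10 (SE 0.30 with the pooled spread). Of 18 oxidative and unfolded protein stress probe sets, Mt2, a metal-binding metallothionein, was higher, with 124, 36.0 and 407 in b2 2nd, against 39.2, 20.8 and 6.56 in b2 single (2.80, adjusted p = 0.027). Those arrays overlapped, and Mt2 was called in 3 of 6 fits (1.93 to 3.68). Of 19 circadian clock probe sets 1 was lower: Nfil3, a repressor in the clock's accessory loop, had 32.4, 13.02 and 28.7 in b2 2nd, against 190.4, 84.9 and 78.6 in b2 single (-2.24, adjusted p = 0.011). Without replicate 2 of b2 2nd the Nfil3 difference was -1.83 (adjusted p = 0.11), and without replicate 1 of b2 single it was -1.83 (adjusted p = 0.096). Limma called 0 of 21 immediate early, 0 of 9 photoreceptor injury, 0 of 16 interferon and 0 of 12 apoptosis probe sets, of which 0, 1, 0 and 2 had an unadjusted p under 0.05 in the 6 arrays. Over all tested probe sets 7.22% had one. Fos, an early marker of cell activation, had 19.9, 14.6 and 8.38 in b2 2nd, against 8.34, 13.2 and 7.91 in b2 single.

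Families were looked at after the calls were seen, so their shares are a description beside the 2.04% of all tested probe sets (1.01% higher and 1.03% lower). That share was larger at middle intensities, 5.15% between 32 and 64 and 6.04% between 128 and 256, and the families were not matched for intensity. The COP9 signalosome had 10 tested genes, and Cops6 was its only call. The differences of the other 9 ran from -1.10 for Cops3 to 0.65 for Gps1, another subunit, which had 574, 384 and 309 in b2 2nd, against 239, 179 and 407 in b2 single. Of 49 proteasome probe sets 4 were higher and 2 were lower, 12.2% in all. Psmb1, a core subunit, had 582, 255.5 and 249 in b2 2nd, against 184, 79.0 and 149.6 in b2 single (1.36, adjusted p = 0.0016), while Psmd6, of the regulatory particle, had 143, 87.1 and 67.9 in b2 2nd, against 243, 191 and 390 in b2 single (-1.47, adjusted p = 0.0017). The 77 mitochondrial ribosomal probe sets held 6 calls (7.79%), all lower in b2 2nd, although the median of the 77 was 0.04. Mrps35, of the small subunit, had 29.8, 7.83 and 13.4 in b2 2nd, against 55.8, 78.8 and 39.2 in b2 single (-1.93, adjusted p = 0.0045). Among 576 olfactory receptor probe sets 26 were higher and 4 lower, 5.21% in all. These 576 of 1005 were tested because their mean passed the filter in at least 1 set, and b2 2nd was among those sets. Olfr190 passed through b2 2nd alone, so neither the share nor the direction of these calls is a test. In 16 of the 26 only 1 array of b2 2nd was more than 4-fold above the highest b2 single array, in 7 cases 2 arrays were, and in 3 none was.

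Among markers of other cell types 1 probe set was called, beside 2.04% of all tested probe sets. Of 11 tested ganglion cell markers Thy1, a surface protein of ganglion cells, was lower, with 10.3, 5.39 and 17.3 in b2 2nd, against 80.5, 16.6 and 48.3 in b2 single (-2.02, adjusted p = 0.004). Its arrays overlapped, and without replicate 2 of b2 2nd it had -1.58 (adjusted p = 0.072), without replicate 1 of b2 single -1.52 (adjusted p = 0.077). Of the 11 markers 9 had a difference above 0, up to 1.36 for Sncg, and the median of the 11 was 0.21. The summed level of the 11 markers was 134 to 232 in b2 2nd and 137 to 183 in b2 single. None of 12 Müller glia markers was called, but their sum was 461 to 2944 in b2 2nd, against 542 to 1195 in b2 single, and the top value was replicate 3 of b2 2nd. That array had 1010 for Glul, glutamine synthetase, where the other b2 2nd arrays had 123 and 146 and the b2 single arrays 337, 114 and 16.4. It also had 779 for Apoe, against 105.2 and 105.4 on the other b2 2nd arrays and 142 to 349.6 in b2 single. The bipolar cell marker Cabp5 had 9.29, 9.10 and 78.4 in b2 2nd, against 14.1, 15.8 and 14.5 in b2 single. The 11 bipolar markers summed to 111 to 337 in b2 2nd and 129 to 284 in b2 single. Without replicate 3 of b2 2nd 451 probe sets were called, of which 217 were also called with all arrays. Such counts depend on the spread and the thresholds, so they do not test what glial or bipolar RNA contributed. None of the tested markers of amacrine (11), horizontal (7), pigment epithelial (11), microglial (11), endothelial (7), pericyte (8), red blood (2), lens (14) or astrocyte (5) cells was called. Rpe65, which defines the pigment epithelium, had 5.07, 8.25 and 4.92 in b2 2nd, against 3.62, 3.90 and 3.46 in b2 single. The part of these cells in the other differences was not tested.

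Of 13 cone probe sets 3 were at or below the floor on all 6 arrays, and 8 stayed below the median of all values, 9.01, on all 6. The other 5 were above that median on at least 1 array. Arr3, the cone arrestin, was at 0.0238 on all b2 2nd arrays and at 1.09, 0.0238 and 0.0238 in b2 single. Opn1mw, the medium-wavelength opsin, had 31.1, 0.0246 and 14.4 in b2 2nd, against 0.0238, 0.0246 and 0.0246 in b2 single. Opn1sw, the short-wavelength opsin, was under the floor on all arrays except replicate 3 of b2 single, at 134. Pde6h, the cone phosphodiesterase inhibitor subunit, had 93.7, 229 and 8.76 in b2 2nd, against 10.2, 27.2 and 0.0251 in b2 single, with an adjusted p of 0.19. None of the 12 tested cone probe sets was called.

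The third set of the line gave calls against both of the others. With the pooled spread, b2 1st minus b2 2nd gave 311 calls (1.98%) and b2 1st minus b2 single 183 (1.16%); these comparisons share arrays with each other and with the first, and they set batch label 1 against batch label 2. In the line Arc, which the series repeated in 3 sets, the same rule gave 8 calls for Arc 2nd minus Arc 1st (0.0508%), 66 for Arc 3rd minus Arc 1st (0.419%) and 11 for Arc 3rd minus Arc 2nd (0.0699%). The median SD of a probe set within a set was 0.206 to 0.226 (log2) in the Arc sets and 0.311 to 0.387 in the b2 sets. The pooled spread does not allow for this, and the difference in the number of calls between the lines was not tested.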

How the data were processed

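The authors deposited 1 intensity per probe set and array for 78 arrays, biotin-labelled from total RNA. The tools that the submitters' processing notes name are R 2.11.1, oligo and RMA, with mm9 as the build; their settings are not given in the sources used here. The deposited intensities are linear (0.0238 to 5770), and the sorted values of all 78 columns are identical (largest difference 0), as quantile normalization gives. Log2 of each intensity was taken here. Values of different probe sets were not compared as levels.

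The platform annotation pairs 19446 of the 22347 probe sets with 1 symbol, 735 with several and lacks 2166; the last 2 kinds were tested only in an alternative. RefSeq gene IDs matched for 19368, and 0 symbols changed. Probe sets whose mean stayed under 9.01, the overall median, in each of the 26 sets were left out. Low values run in order of probe set identifier on 70 of the 78 arrays, in runs of 10 or more. The run ends at 3.99 at the latest, which was taken as the floor, and 10.5% of an array's values lie at or below it. Where values raised to the floor give a difference more than 1.5 times smaller, and where all arrays of the dimmer set lie under the floor, the difference is a bound from that fit.

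Tests used limma 3.58.1 in R 4.3.3 (lmFit, eBayes with a trend) with 1 mean per set over all 78 arrays, no covariates and Benjamini-Hochberg adjustment over all tested probe sets. A call needs an adjusted p under 0.05 and a log2 difference of at least 1. The fit was tested on simulated data. Intervals at 95% are from limma. Tables and figures were made with Python 3.11.15, pandas 2.3.3, numpy 2.4.6 and matplotlib 3.10.9.

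Named genes are the 15 largest calls in each direction whose arrays do not overlap, all called members of the gene lists, Gnat1, Nrl and up to 3 bright members of each list described. Others were chosen after their values were seen, as were the symbol families, the COP9 list and the Arc comparisons. The members and lists were chosen with earlier results of these data known. Alternatives were the arrays in the fit, a replicate block, the floor, filters, probe sets per gene, scaling, the prior trend, array weights, the fold threshold, a pseudocount of 16 and leaving out each array. No column was without a sample. Some retina genes were not analysed here.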

Additional observations from a re-analysis of the deposited data

How the results depend on the processing

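The 321 calls of b2 2nd minus b2 single depended on which arrays give the spread. Limma called 0 with the 6 arrays only (1136 at an unadjusted p under 0.05), 0 with the 9 b2 arrays (1316) and 0 with the 6 arrays and a replicate block (1130). Chosen after seeing the data were the 6 arrays with values raised to the floor (0 calls, 1175 at an unadjusted p under 0.05), with a filter on their own mean (0, 817) and without replicate 2 of b2 2nd (1, which is not among the 321), and all 78 arrays with a replicate block (317). Array weights gave 122, and leaving out 1 array gave 184 to 451, the lowest without replicate 2 of b2 2nd. The other 9 alternatives gave 292 to 421 calls, 421 with the floor. With log2(value + 16), which gave the 292, 167 of these were among the 321, and 4 named calls were lost. Scaling moved the higher share to 54.8%, against 49.5%. For b2 1st minus b2 2nd (311), the 6 arrays gave 0 (1219), 9 arrays 2, the replicate block 0 (1110), array weights 135, and leaving out 1 array 202 to 479. For b2 1st minus b2 single (183), these gave 3, 1, 0 (984), 86, and 160 to 225. No named gene changed direction while called. All 38 named calls were lost with the 6 or 9 arrays, 15 with array weights and 15 without replicate 2 of b2 2nd. Replicate numbers shared by the sets did not pair arrays: the deviations of equal-numbered arrays correlated at 0.0225, 0.0127 and 0.0121. Values at the floor limit the size of differences of dim genes, and no setting was left out.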

Other observations

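Sex-linked transcripts varied between the arrays of the line, whose labels give no sex. Xist, the RNA that coats the inactive X chromosome of females, had 36.4, 43.4 and 9.01 in b2 2nd, against 52.5, 124 and 75.7 in b2 single, and 5.73, 14.2 and 10.2 in b2 1st. All 3 b2 2nd arrays were below those of b2 single, and the difference, -1.70, had an unadjusted p of 0.039 in the limma fit of the 6 arrays. Eif2s3y, a Y-linked translation factor, had 2.14, 9.59 and 17.0 in b2 2nd, against 2.1, 2.44 and 2.54 in b2 single, and 65.7, 21.0 and 61.9 in b2 1st. All b2 single arrays lay under the floor for Eif2s3y, and the b2 1st arrays were the highest of the 9. Neither gene passed the adjustment in the fit of 78 arrays (adjusted p = 0.85 for Xist and 0.84 for Eif2s3y).

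Lens crystallins were high on 1 array of the line. Replicate 3 of b2 1st had 553 for Crygs, 278 for Cryba1 and 206 for Cryaa, genes of the transparent lens fibre. The 3 arrays of b2 2nd had 3.82 to 5.595 for Crygs, and the b2 single arrays 5.07 to 6.27. The summed level of the 14 lens markers was 164 to 181 in b2 2nd, 152 to 156 in b2 single and 170.0 to 1307 in b2 1st. What this array's lens RNA contributes to the differences of b2 1st was not tested.

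Drd4, the dopamine receptor of photoreceptors, had 1053, 721 and 492 in b2 2nd, against 560.2, 937 and 463 in b2 single (0.21, SE 0.37 in the 6 arrays). The sets overlapped, and the median of the 19 tested clock probe sets was 0.15. Some highly expressed genes passed the adjusted threshold below the fold limit: Atp5b, of ATP synthase, had 1282, 1048 and 980.4 in b2 2nd, against 524, 836 and 477 in b2 single (0.89, adjusted p = 0.0024), and Rps3, of the small ribosomal subunit, had 1178, 958 and 1077 in b2 2nd, against 646, 603 and 544 in b2 single (0.84, adjusted p = 0.0025). For both, all b2 2nd arrays lay above those of b2 single.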
